A study of Oryza sativa with 20 samples.

Results

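Cyclins are the regulatory subunits that switch on cyclin-dependent kinases (CDKs), and the genes described here are the rice cyclins and CDKs measured in stem bases after induction of CRL1. They were the genes whose annotated symbol or RefSeq synonym, with or without the prefix Os, starts with a cyclin class name (CYCA, CYCB, CYCD, CYCT, CYCH, CYCP, CYCF, CYCL or CYCU), CDK or CDC2. That rule matched 46 genes by name, of which 42 are cyclins or CDKs, and 35 of the 42 (24 cyclins and 11 CDKs) had a probe set on the array, out of 17905 genes with a probe set of their own. The 7 with no probe set listed, not analysed here, were CDKB1-1, CDKC-2, CDKF-2, CYCA3-1, CYCB1-5, CYCD2-1 and CYCT1-1, and no gene named CYCU was matched. The letters of the rule also took in 4 genes that are neither cyclins nor CDKs: the replication clamp gene PCNA through its old synonym Cyclin, the arsenate reductase genes CDC25.1 and CDC25.2, and the symbiosis gene CYCLOPS. Where a gene had several probe sets, the one with the highest mean signal over the 20 arrays was used. Genes are called by the hyphenated synonym of the RefSeq table where it lists one that is not also given to another member, and by the synonym with a semicolon otherwise (CYCT1;2 and CYCT1;4). The name CYCB1-1 was kept for locus LOC4327547 although the table lists it also for LOC4326914, which is called CYCB1-3 here.

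All plants were crl1 (crown rootless 1) mutants of the rice cultivar Taichung 65. CRL1 is a LOB-domain transcription factor needed for crown roots, which emerge from the stem base of grasses. The CRL1 lines were 3 independent transformation events with pINDEX2-CRL1, a construct that expresses CRL1 when the synthetic glucocorticoid dexamethasone is given, and per the labels they had been picked for a single homozygous locus, for induction of the transgene on northern blots and for crown roots after dexamethasone. The control lines were an untransformed crl1 line (control line 1) and a line with the empty pINDEX2 vector (control line 2). At 8 days of age, seedlings of each line received 10 µM dexamethasone or a mock treatment with the ethanol solvent, and stem bases were taken 8 h or 4 h later. Each RNA came from a pool of 20 stem bases, with 1 array per line, treatment and time: 3 arrays in each CRL1 group, 2 in each control group and 20 in all. The lines are the replicates, so p-values rest on the spread between lines. The annotation pairs CRL1 with no probe set, so whether the arrays show the transgene induced was not analysed here.

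In plants, D-type cyclins act mainly with A-type CDKs at the start of the cell cycle, where they phosphorylate retinoblastoma-related proteins and allow genes of DNA replication to be transcribed. A-type cyclins serve from S phase to mitosis, and the CYCA3 class has been tied to S phase. B-type cyclins and the plant-specific CDKB kinases are made around entry into mitosis and are widely used as marks of dividing cells. Cyclins of the T, H and L classes and the CDKs of classes C, D, E and G work mostly in transcription, splicing or activation of other CDKs, and their transcripts change little through the cycle. CDK activity is held back by Kip-related proteins (KRP) and by the SIAMESE-related family, whose rice member EL2 was among the first described.

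The deposited MAS5 signals had already been scaled, with a 2% trimmed mean between 100.01 and 100.02 on every array and medians between 10.1 and 15.5. Some arrays stood apart from those of other lines, by their median correlation with them over the tested probe sets. It was 0.9502 to 0.9641 for CRL1 line 1, 0.9258 to 0.9641 for CRL1 line 2, 0.9448 to 0.9638 for CRL1 line 3, 0.9148 to 0.9454 for the untransformed control line 1 and 0.9559 to 0.9659 for control line 2. Among CRL1 arrays the lowest value, 0.9258, was that of line 2 with dexamethasone at 8 h, and the other arrays of line 2 had 0.9614 to 0.9641. Changes are differences of log2(signal + 1.7) with their standard errors (SE), tested with limma over 32836 probe sets, and a gene is said to have risen or fallen where its Benjamini-Hochberg adjusted p over all of them was below 0.05. Of the 35 members 34 passed the filter on dim signals. The exception was CYCF2-2, an F-type cyclin gene, whose signals lay between 0.3 and 5.4 on the 20 arrays. For groups of 2 or 3 arrays, values in single arrays are given in the order of the line numbers.

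The main question was which cyclin and CDK transcripts changed after dexamethasone in the CRL1 lines. At 8 h 3 cyclin genes rose, CYCA3-2, CYCD5-2 and CYCD5-1, and 2 fell, CYCD3-2 and CYCP4-1, while no CDK gene passed the test. In total 5 of 34 tested members passed (14.7%), against 6.38% of all tested probe sets (3.47% higher and 2.91% lower). At an unadjusted p under 0.05 in limma there were 12 members, against 18.2% of all probe sets. The median change of the members was -0.08 on the log2 scale and that of all probe sets was -0.04. With the line kept as a block, which compares the treatments within each line, 7 of 34 members passed (20.6%), against 11.1% of all probe sets, and the 2 added were CYCD5-3, which was higher, and CYCD2-2, which was lower. Leaving out a line gave 1 member higher and 1 lower without CRL1 line 1, 0 and 2 without CRL1 line 2, and 1 and 0 without CRL1 line 3. Calls over all probe sets also dropped without each of these lines, as given in the last section. These RNAs came from whole stem bases, in which fewer cells of a type and less RNA per cell cannot be told apart.

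**Figure D1:**
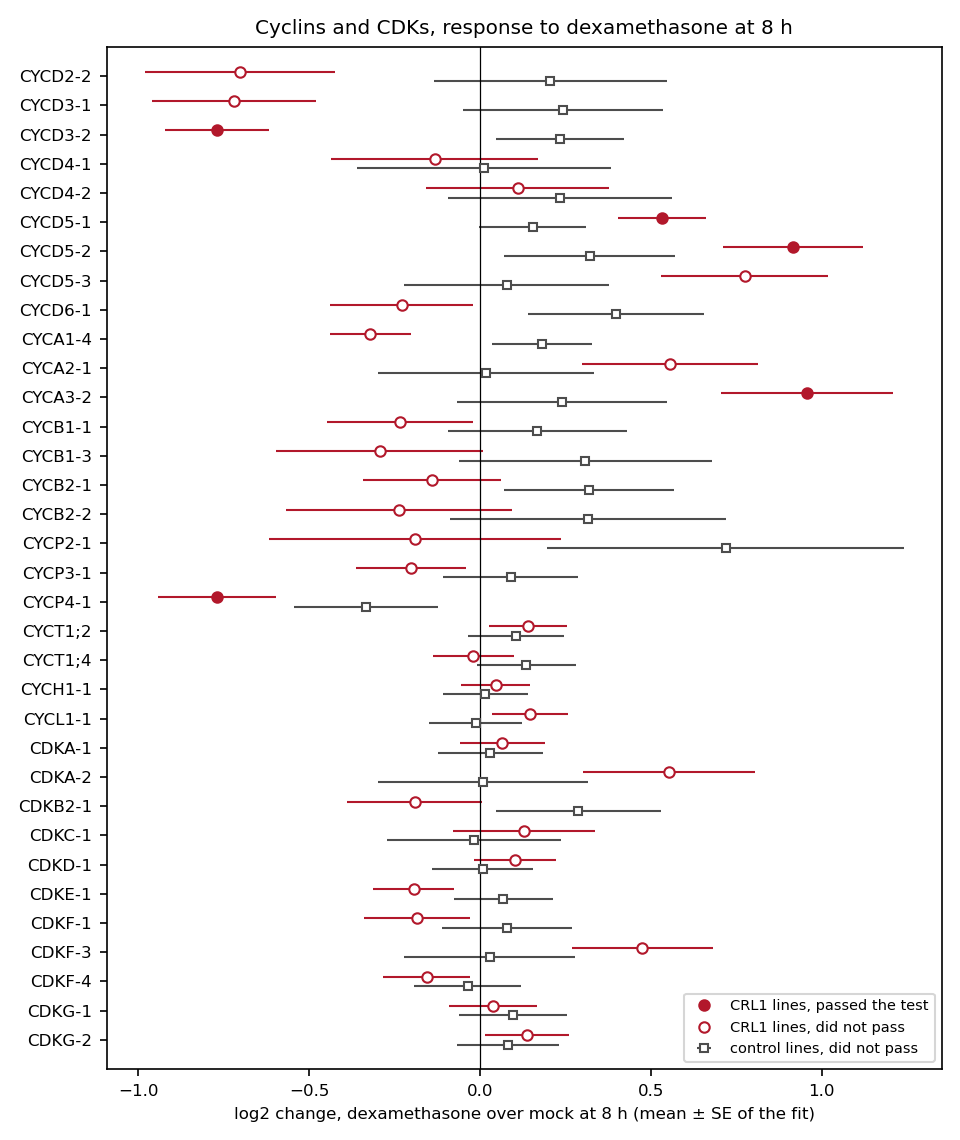
Change of each of the 34 tested cyclin and CDK genes at 8 h, as the log2 change with dexamethasone over mock (horizontal axis, mean ± SE of the limma fit), for the CRL1 lines (red circles, 3 lines) and the control lines (grey squares, 2 lines). Filled symbols passed the test: CYCA3-2, CYCD5-2 and CYCD5-1 lie right of 0, CYCD3-2 and CYCP4-1 left of it, and no control-line value passed.

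D-type cyclins link outside cues to the start of the cycle. Of the 9 tested CYCD genes 2 rose and 1 fell at 8 h, against 3.47% of all probe sets higher and 2.91% lower, and their changes ran from -0.77 to 0.92.

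CYCD5-2 (LOC4352668) had signals of 184.6, 311.0 and 311.4 in CRL1 lines with dexamethasone at 8 h, against 150.6, 111.8 and 155.4 with mock. Every dexamethasone array was above every mock array, though line 1 moved little. The change was 0.92 ± 0.20 on the log2 scale (1.887-fold, 3 lines, adjusted p = 0.0128, limma). Without CRL1 line 2 or line 3 its adjusted p was 0.253 or 0.138. At the same time the control lines had signals of 132.1 and 112.7 with dexamethasone, against 93.4 and 101.5 with mock, a change of 0.32 ± 0.25 that did not pass. In both kinds of line the dexamethasone arrays were thus above the mock arrays, and the second probe set of this gene had a change of 0.41 in the CRL1 lines with an adjusted p of 0.283.

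CYCD5-1 (LOC4333455) had signals of 127.2, 137.7 and 153.3 in CRL1 lines with dexamethasone at 8 h, against 93.2, 89.9 and 104.2 with mock. The groups did not overlap, and the 3 lines moved by similar amounts, with log2 changes of 0.44, 0.61 and 0.55 within lines 1, 2 and 3. The fitted change was 0.53 ± 0.13 (1.446-fold, adjusted p = 0.02, limma). Without CRL1 line 1, 2 or 3 the adjusted p was 0.121, 0.255 or 0.14, at changes of 0.58, 0.50 and 0.52. Control lines had 120.5 and 100.2 with dexamethasone, against 104.6 and 92.9 with mock.

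CYCD5-3 (LOC4331985) had signals of 202.2, 301.9 and 129.1 in CRL1 lines with dexamethasone at 8 h, against 108.4, 135.8 and 105.3 with mock. Each line was higher with dexamethasone, but line 3 with dexamethasone was below line 2 with mock, so the groups overlapped. Its change of 0.77 ± 0.25 had an adjusted p of 0.0778, of 0.0066 with the line as a block and of 0.0433 without CRL1 line 3. CYCD5-3 and CYCD2-2 are outside the rule for genes given in every array and were added because the block changed their call. In control lines CYCD5-3 had 113.1 and 113.6 with dexamethasone, against 106.3 and 108.3 with mock.

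CYCD3-2 (LOC4346394), of the class that in Arabidopsis keeps shoot cells dividing, had signals of 85.4, 88.5 and 63.3 in CRL1 lines with dexamethasone at 8 h, against 132.7, 118.5 and 155.1 with mock. Every dexamethasone array was below every mock array. It fell by 0.77 ± 0.15 on the log2 scale (0.5864-fold, adjusted p = 0.00567, limma), the smallest adjusted p of the members in this comparison. It did not pass without CRL1 line 1 (adjusted p = 0.0685) or without CRL1 line 3 (adjusted p = 0.126). Control lines had 123.8 and 143.2 with dexamethasone, against 108.3 and 117.8 with mock, so both control lines moved the other way, by 0.19 and 0.28.

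CYCD3-1 (LOC4340499) had signals of 75.9, 133.2 and 88.5 in CRL1 lines with dexamethasone at 8 h, against 204.1, 154.7 and 129.6 with mock. All 3 lines were lower with dexamethasone, and the groups overlapped. The change of -0.72 ± 0.24 had an adjusted p of 0.0941 and did not pass. CYCD2-2 (LOC4343936) had 30.4, 75.3 and 39.2 with dexamethasone, against 70.8, 77.2 and 74.5 with mock. Lines 1 and 3 were low with dexamethasone and line 2 was nearly level, with changes of -1.18, -0.04 and -0.90 in lines 1, 2 and 3. The fitted change was -0.70 ± 0.28, with an adjusted p of 0.175, of 0.0336 with the line as a block and of 0.0447 without CRL1 line 2. The remaining D-type cyclin genes, CYCD4-1, CYCD4-2 and CYCD6-1, had changes of -0.13, 0.11 and -0.23 and did not pass.

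Among the A-type cyclins, CYCA3-2 (LOC4352642) rose and the other 2 tested genes did not pass. CYCA3-2 had signals of 163.7, 247.4 and 204.1 in CRL1 lines with dexamethasone at 8 h, against 118.4, 99.1 and 94.2 with mock. The lowest dexamethasone array was above the highest mock array. The change was 0.96 ± 0.25 on the log2 scale (1.94-fold, adjusted p = 0.0325, limma), with 0.46, 1.31 and 1.10 within lines 1, 2 and 3. The call did not hold without any 1 of the 5 lines: the adjusted p was 0.0912, 0.108 and 0.138 without CRL1 lines 1, 2 and 3, and 0.0509 and 0.0512 without control lines 1 and 2. Control lines had 94.0 and 95.3 with dexamethasone, against 77.9 and 81.9 with mock, a change of 0.24 ± 0.31 that did not pass.

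CYCA2-1 (LOC4352280) had signals of 320.3, 558.6 and 278.5 in CRL1 lines with dexamethasone at 8 h, against 315.5, 272.9 and 181.0 with mock, a change of 0.56 ± 0.26 (adjusted p = 0.266, limma). Line 1 was level and lines 2 and 3 were higher with dexamethasone. CYCA1-4 (LOC4338177) had 100.2, 98.8 and 103.6 with dexamethasone, against 132.9, 121.5 and 125.1 with mock. Its groups did not overlap, yet its change of -0.32 ± 0.12 had an adjusted p of 0.139 and did not pass.

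**Figure D2:**
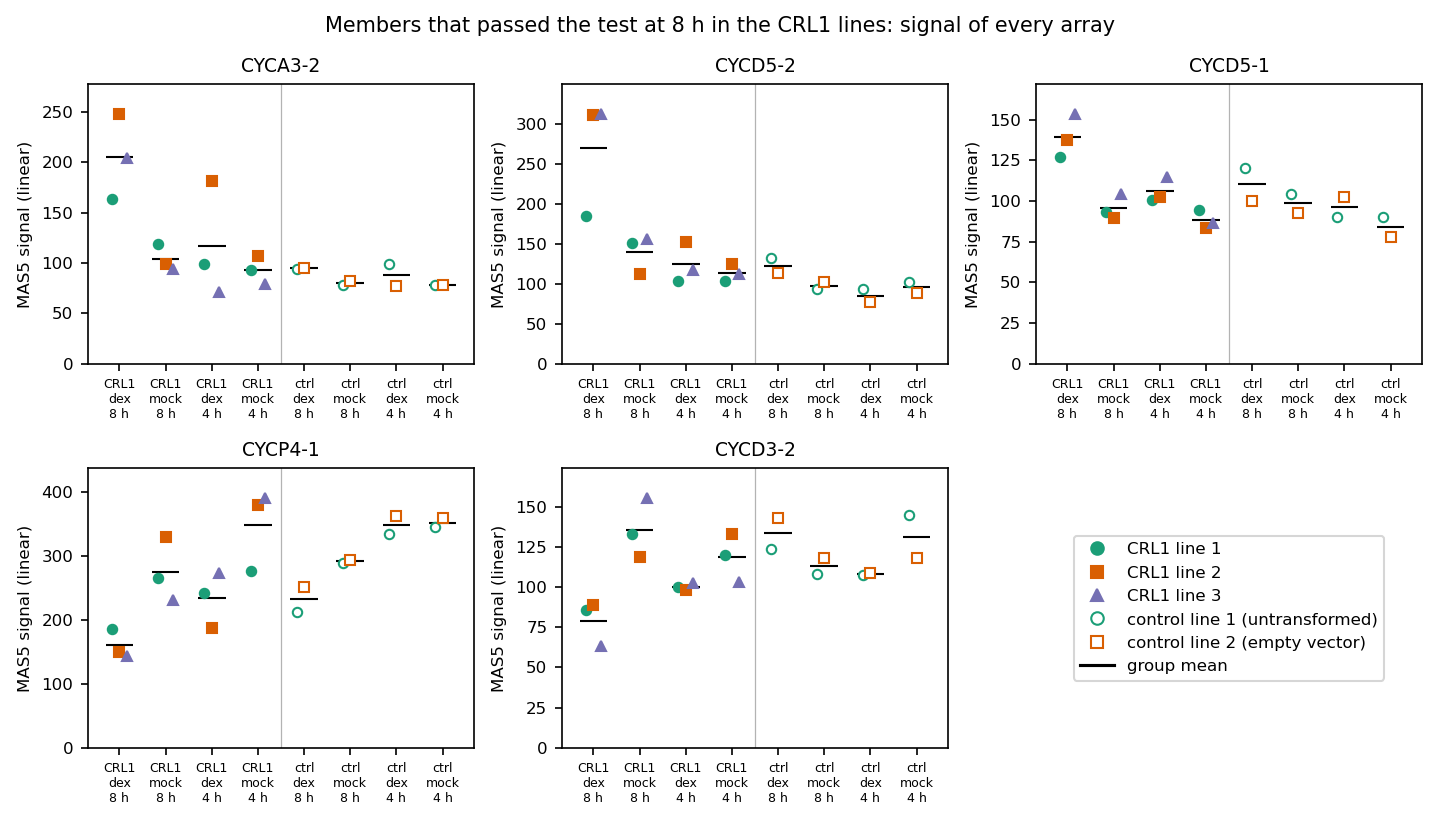
MAS5 signal on a linear scale (vertical axis, starting at 0) of the 5 members that passed the test at 8 h, in each of the 20 arrays, by group along the horizontal axis. Filled symbols are CRL1 lines 1 to 3, open symbols are control lines 1 and 2, and bars are group means; CYCA3-2, CYCD5-2 and CYCD5-1 were higher in all 3 CRL1 lines with dexamethasone at 8 h than in any CRL1 line with mock at 8 h, and CYCP4-1 and CYCD3-2 were lower.

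The mitotic pair of B-type cyclins and CDKB did not pass in any direction. All 4 CYCB genes and CDKB2-1 had negative changes in the CRL1 lines at 8 h, between -0.29 and -0.14, with a smallest adjusted p of 0.655. CYCB1-1 (LOC4327547), which partners CDKs at entry into mitosis, had signals of 380.7, 628.5 and 425.4 in CRL1 lines with dexamethasone, against 674.4, 531.7 and 462.9 with mock. Line 2 was higher and lines 1 and 3 were lower with dexamethasone, and the groups overlapped. Its change was -0.23 ± 0.21, with a 95% interval of -0.69 to 0.22 (adjusted p = 0.655, limma), and without CRL1 line 1 it was 0.060.

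CDKB2-1 (LOC4346016), the one measured B-type CDK, had signals of 249.3, 383.5 and 248.3 in CRL1 lines with dexamethasone at 8 h, against 351.0, 307.9 and 327.8 with mock. The pattern by line was that of CYCB1-1. Its change was -0.19 ± 0.20, with a 95% interval of -0.61 to 0.23 (adjusted p = 0.705, limma). CYCB1-3, CYCB2-1 and CYCB2-2 had changes of -0.29 ± 0.30, -0.14 ± 0.20 and -0.24 ± 0.33.

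The 5 mitotic genes moved together within a line and differently between lines. At 8 h the median of their changes was -0.49 in CRL1 line 1, 0.24 in CRL1 line 2 and -0.40 in CRL1 line 3. None of the 5 was higher with dexamethasone in CRL1 lines 1 and 3, and all 5 were higher in CRL1 line 2. Each of these changes sets 1 dexamethasone array against 1 mock array, so the 5 genes share any difference between those arrays. In both control lines all 5 were higher, with medians of 0.38 and 0.21. At 4 h the medians were -0.20, 0.09 and -0.28 in CRL1 lines 1, 2 and 3 and -0.23 and -0.43 in control lines 1 and 2.

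Levels also differed between the CRL1 lines, though not in the same order in every group. CRL1 line 2 had the highest signal of the 3 CRL1 lines for 7 of the 8 A-type, B-type and CDKB genes with dexamethasone at 8 h, with dexamethasone at 4 h and with mock at 4 h. It had the highest signal for 35.0%, 33.0% and 32.6% of all tested probe sets in those groups. With mock at 8 h, CRL1 line 1 was highest for 7 of the 8 genes, against 29.0% of all tested probe sets. The part of the mock array of line 1 in the negative changes of the mitotic genes was not tested beyond leaving that line out.

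**Figure D3:**
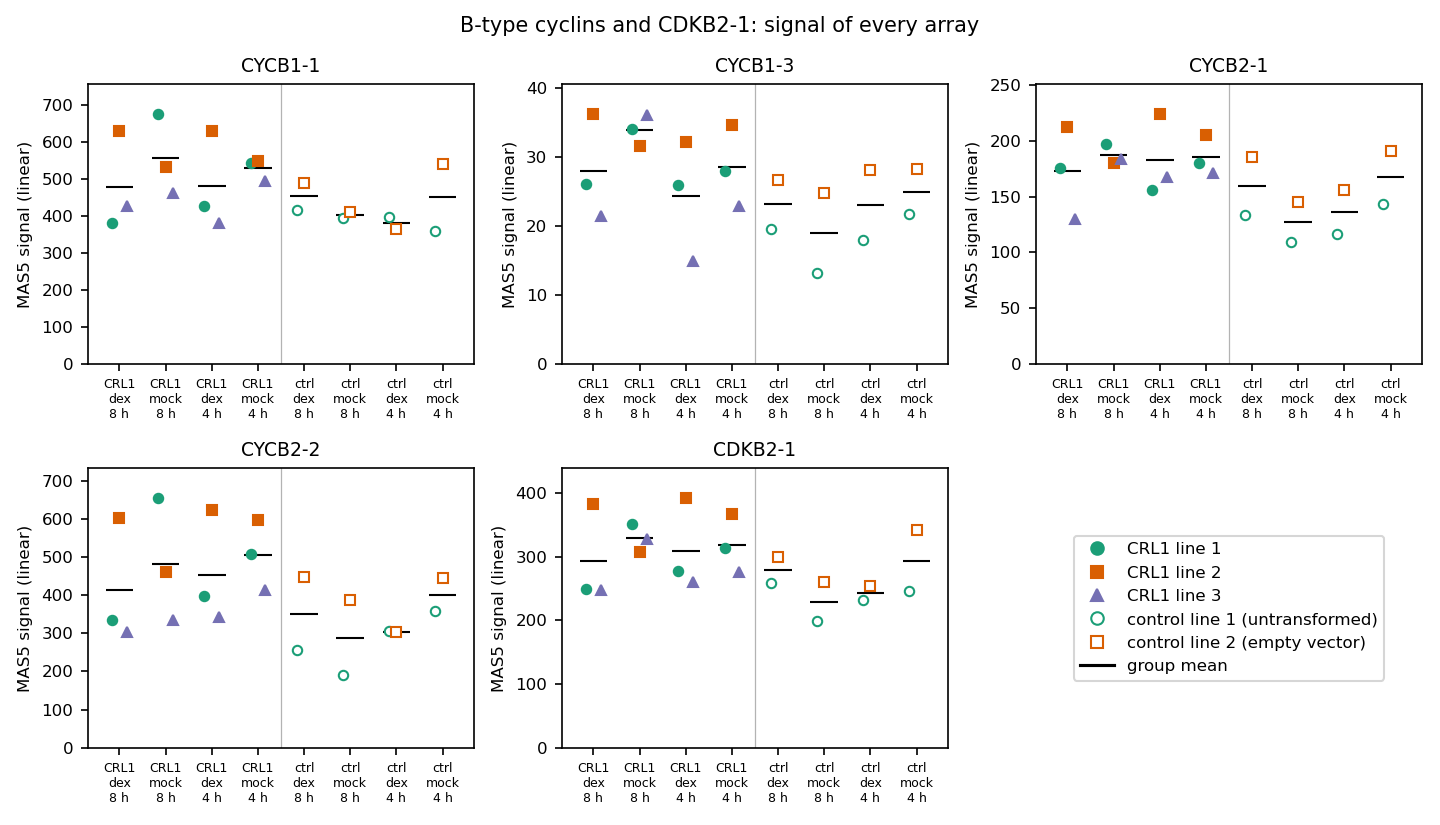
MAS5 signal on a linear scale (vertical axis, starting at 0) of the 4 B-type cyclin genes and CDKB2-1 in each of the 20 arrays, by group along the horizontal axis, with CRL1 lines as filled and control lines as open symbols and group means as bars. CRL1 line 2 (squares) was the highest CRL1 line for all 5 genes with dexamethasone at 8 h.

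The P-type cyclins are a class without an assigned step of the cell cycle, and in rice the CYCP4 group has been tied to phosphate starvation. CYCP4-1 (LOC4349405) had signals of 186.2, 149.5 and 143.6 in CRL1 lines with dexamethasone at 8 h, against 265.0, 328.7 and 230.3 with mock. The groups did not overlap. It fell by 0.77 ± 0.17 on the log2 scale (0.5867-fold, adjusted p = 0.0131, limma). Without CRL1 line 2 or line 3 the adjusted p was 0.197 or 0.0525. Control lines had 212.3 and 251.2 with dexamethasone, against 289.3 and 293.6 with mock, so both were also lower with dexamethasone, by a fitted change of -0.33 ± 0.21 that did not pass. CYCP2-1 and CYCP3-1 had changes of -0.19 ± 0.43 and -0.20 ± 0.16 in the CRL1 lines and were lower with dexamethasone in each of the 3 lines.

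No CDK of the A class passed. CDKA-2 (LOC4328135), one of the main kinases partnered by D-type and A-type cyclins, had signals of 270.6, 357.4 and 192.3 in CRL1 lines with dexamethasone at 8 h, against 212.5, 154.1 and 178.4 with mock. Each line was higher with dexamethasone and the groups overlapped. Its change was 0.55 ± 0.25 (adjusted p = 0.254, limma), and its 2 further probe sets gave 0.63 and 0.74. CDKA-1 (LOC4331415) had a change of 0.07 ± 0.13, with a 95% interval of -0.20 to 0.33. The probe sets used for CDKA-2 and CDKA-1 carry the suffixes x_at and s_at, by which the manufacturer marks probes that can match more than 1 transcript, so these values may include related transcripts.

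Of the 8 tested genes of classes CDKC to CDKG none passed, and their changes ran from -0.19 to 0.48. Of the 4 tested genes of classes CYCT, CYCH and CYCL none passed, and theirs ran from -0.02 to 0.15.

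CDKF-3 (LOC4334774), of the class whose first Arabidopsis member activates CDKD kinases, had signals of 214.5, 289.8 and 143.4 in CRL1 lines with dexamethasone at 8 h, against 143.7, 162.9 and 140.5 with mock. Lines 1 and 2 were higher and line 3 was level, for a change of 0.48 ± 0.21 (adjusted p = 0.224, limma). CDKE-1 (LOC4349519), the kinase of the Mediator complex, had 217.4, 198.2 and 210.5 with dexamethasone, against 251.0, 222.2 and 244.3 with mock. Its groups did not overlap, and its change of -0.19 ± 0.12 had an adjusted p of 0.433.

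CYCL1-1 (LOC4325450), a cyclin of the splicing-related L class, had signals of 356.0, 400.1 and 381.4 with dexamethasone, against 324.3, 360.0 and 343.3 with mock. CDKG-2 (LOC4336224), of the CDK class tied to splicing, had 396.4, 360.7 and 407.1 with dexamethasone, against 342.6, 337.7 and 377.7 with mock. Both were slightly higher with dexamethasone in each line, by 0.15 ± 0.11 and 0.14 ± 0.12, and did not pass. CDKD-1 (LOC4338689), a CDK-activating kinase, had 432.2, 458.3 and 432.2 with dexamethasone, against 453.1, 399.2 and 382.4 with mock. Its partner CYCH1-1 (LOC4334040) had 148.9, 158.9 and 166.9 with dexamethasone, against 159.0, 151.3 and 149.2 with mock. Both overlapped between groups, with changes of 0.10 ± 0.12 and 0.05 ± 0.10.

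CDKC-1 (LOC4338674), which phosphorylates RNA polymerase II with T-type cyclins, had signals of 67.7, 65.9 and 77.4 in CRL1 lines with dexamethasone, against 66.2, 63.9 and 62.1 with mock. CYCT1;2 (LOC4329229), such a T-type cyclin, had 196.7, 212.4 and 245.9 with dexamethasone, against 186.6, 215.8 and 190.4 with mock. Only line 3 moved appreciably in either gene, and the fitted changes were 0.13 ± 0.21 and 0.14 ± 0.11. CYCT1;4, CDKF-1, CDKF-4 and CDKG-1 had changes of -0.02, -0.19, -0.16 and 0.04.

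Across all 34 members, every dexamethasone array of the CRL1 lines at 8 h was above every mock array for 3 genes (CYCA3-2, CYCD5-1 and CYCD5-2). That was a smaller share than the 10.6% of all tested probe sets with this pattern. Every dexamethasone array was below every mock array for 5 genes (CYCD3-2, CYCP4-1, CYCA1-4, CDKE-1 and CDKF-4), a share close to the 13.7% of all. All 3 lines moved up for 10 members and down for 10, against 18.0% and 23.8% of all probe sets.

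At 4 h none of the 34 members passed in the CRL1 lines, where 0.435% of all probe sets did. An unadjusted p under 0.05 in limma was found for 1 member, CYCP4-1, against 6.16% of all probe sets. CYCP4-1 had signals of 241.2, 187.3 and 273.2 with dexamethasone at 4 h, against 275.7, 379.8 and 389.5 with mock, a change of -0.57 ± 0.17 (adjusted p = 0.295). Its groups did not overlap. CYCD3-2 had 99.7, 97.9 and 102.4 with dexamethasone, against 120.1, 133.2 and 102.9 with mock. CYCD5-1 had 100.9, 102.8 and 114.6 with dexamethasone, against 94.5, 83.5 and 86.4 with mock. The groups did not overlap for these 2 genes either, and both moved in the direction they had at 8 h. In total 2 members (CYCD5-1 and CYCT1;2) had every dexamethasone array above every mock array at 4 h, against 6.44% of all probe sets. Every one was below for 4 members (CYCP4-1, CYCD3-2, CDKE-1 and CYCP2-1), against 7.5% of all probe sets.

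The other 2 genes that passed at 8 h overlapped between groups at 4 h. CYCA3-2 had 99.2, 181.4 and 71.3 with dexamethasone at 4 h, against 92.7, 106.8 and 79.1 with mock, with line 2 alone clearly higher. CYCD5-2 had 103.0, 152.6 and 116.9 with dexamethasone, against 102.8, 125.1 and 112.6 with mock. The response at 8 h minus that at 4 h was 0.80 ± 0.29 for CYCD5-2, 0.72 ± 0.36 for CYCA3-2, -0.90 ± 0.34 for CYCD3-1 and -0.53 ± 0.22 for CYCD3-2. None of the 34 members passed in that test of the difference (0.00609% of all probe sets did), and the smallest adjusted p was 0.68. An unadjusted p under 0.05 in limma was found for 3 of the 34 members, against 5.54% of all probe sets.

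In the control lines, which lack the CRL1 construct, no member passed at 8 h or 4 h after dexamethasone (0% of all probe sets did), and none had an unadjusted p under 0.05 in limma. At 8 h 30 of 34 members had a positive change (88.2%, against 55.3% of all probe sets), with a median of 0.10 against 0.03. All 9 CYCD genes, all 3 CYCA genes and all 5 mitotic genes were among them, the last between 0.17 and 0.32. Both control lines moved up for 21 of the 34 members, against 29.0% of all probe sets. At 4 h the changes of the members had a median of -0.0041 and 17 of 34 were positive.

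The test of whether the response differed between CRL1 lines and control lines called no member at 8 h, where 0.71% of all probe sets passed. An unadjusted p under 0.05 in limma was found for 3 of the 34 members, against 9.74% of all probe sets. The smallest adjusted p was that of CYCD3-2 (0.0717), with a difference of -1.004 ± 0.241 on the log2 scale. The difference was -0.96 ± 0.38 for CYCD3-1, 0.72 ± 0.40 for CYCA3-2, 0.60 ± 0.32 for CYCD5-2, 0.38 ± 0.20 for CYCD5-1 and -0.44 ± 0.27 for CYCP4-1. The rises and falls in the CRL1 lines were therefore not shown to differ from the changes in the control lines. The 4 CYCB genes and CDKB2-1 had negative differences, between -0.60 and -0.40, which did not pass. At 4 h the same test called none of the members (0.00914% of all probe sets passed). None had an unadjusted p under 0.05 in limma, against 2.48% of all probe sets.

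Without dexamethasone, CRL1 lines were compared with control lines over both times, with line as a random block. None of the 34 members passed (0.00305% of all probe sets did), with a smallest adjusted p of 0.573. An unadjusted p under 0.05 in limma was found for 3 of the 34 members, against 8.7% of all probe sets. The 5 mitotic genes were all higher in CRL1 lines than in control lines, by 0.33 to 0.55, without passing. CYCD2-2 was 0.50 ± 0.23 higher and CDKC-1 differed by -0.40 ± 0.16. Without control line 2 the calls of CDKF-4, CYCP2-1 and CDKC-1 changed. The share of all probe sets called in that fit is not given here, so these calls cannot be set against it. That fit left the untransformed line as the only control, with median correlations of 0.9148 to 0.9454 with other lines. It cannot tell the kind of line from that line. Between mock at 8 h and mock at 4 h none of the members passed (0.0396% of all probe sets did). Only 1 of the 34, CYCP4-1 at -0.31 ± 0.13, had an unadjusted p under 0.05 in limma, against 5.1% of all probe sets.

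The inhibitors of CDKs moved in both directions in the CRL1 lines at 8 h. Of 10 inhibitor and CDK-binding genes matched by name, 7 had a tested probe set, of which 2 rose and 1 fell, against 3.47% of all probe sets higher and 2.91% lower. EL2 averaged 980.2 ± 98.87 in CRL1 lines with dexamethasone and 487.0 ± 126.3 with mock (SD, n = 3 each), a rise of 1.03 ± 0.23 on the log2 scale (SE, adjusted p = 0.0127, limma). KRP5 averaged 477.0 ± 72.1 with dexamethasone and 304.5 ± 15.6 with mock, a rise of 0.64 ± 0.17 (adjusted p = 0.0349, limma).

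KRP6 averaged 90.27 ± 9.096 with dexamethasone and 212.4 ± 47.18 with mock, and fell by 1.20 ± 0.31 (adjusted p = 0.0293, limma). These 3 genes moved the same way in all 3 CRL1 lines. In the control lines their changes were 0.07, 0.02 and 0.05, and the test of the difference between the kinds of line did not pass for any of them (adjusted p of 0.35 for EL2, 0.464 for KRP5 and 0.371 for KRP6). KRP4, CKS1, KRP1 and SMR1 had changes of -0.26, 0.25, 0.09 and -0.29 and did not pass. Without CRL1 line 1, or without CRL1 line 3, none of the 7 passed, and without CRL1 line 2 EL2 alone did. Calls over all probe sets also dropped in these fits, as given in the last section.

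**Figure D4:**
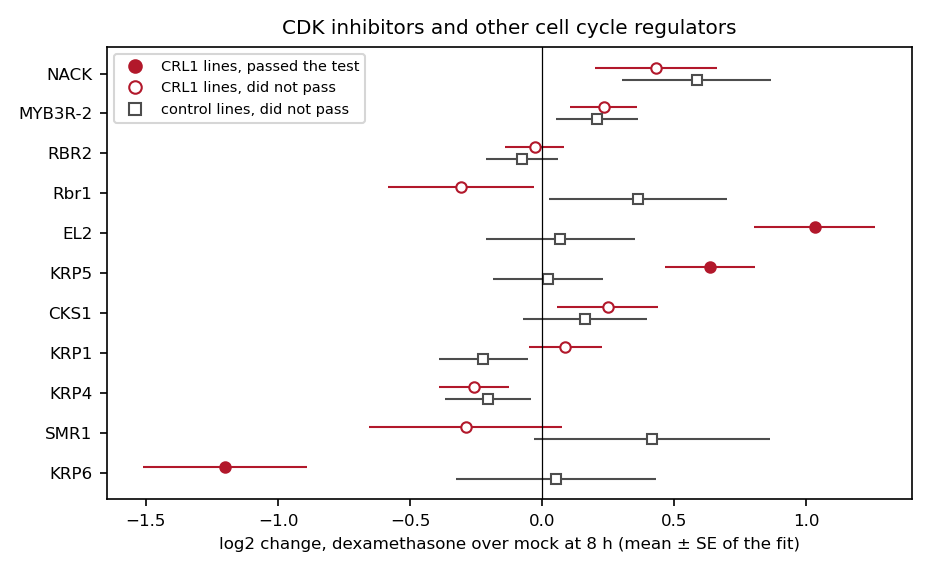
Change at 8 h, as the log2 change with dexamethasone over mock (horizontal axis, mean ± SE of the limma fit), of the tested CDK inhibitors, CKS1, the retinoblastoma-related genes, MYB3R-2 and NACK, for CRL1 lines (red circles) and control lines (grey squares). Filled symbols passed the test: EL2 and KRP5 lie right of 0 and KRP6 left of it, with the control lines near 0 for these 3 genes.

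The retinoblastoma-related genes Rbr1 and RBR2, the targets of D-type cyclin kinases, had changes of -0.31 ± 0.28 and -0.03 ± 0.11 and did not pass. Neither did MYB3R-2, a transcription factor of mitotic genes (0.23 ± 0.13), nor NACK, a kinesin of cell division (0.43 ± 0.23).

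Of 27 tested DNA replication genes 5 rose and none fell in the CRL1 lines at 8 h, against 3.47% of all probe sets higher and 2.91% lower, with a median change of 0.38. In the control lines none passed in limma or had an unadjusted p under 0.05, which 2.55% of all probe sets had. There, 24 of the 27 had a positive change and the median was 0.11. The test of the difference between CRL1 and control lines called 1 of the 27, RFC1, with a difference of 1.18 ± 0.22 (adjusted p = 0.0191, limma). The 5 that rose were the clamp loader genes RFC1 (1.37 ± 0.14, adjusted p = 2.77e-05, limma) and RFC4 (1.35), the helicase subunit gene MCM5 (1.49), the single-strand binding gene RPA3 (0.84) and the origin recognition gene ORC3 (0.90). Without CRL1 line 1, 2 or 3 the count was 1, 1 and 3, while calls over all probe sets also dropped, as given in the last section. PCNA, one of the 27, had signals of 1024.2, 1521.8 and 837.5 with dexamethasone, against 935.2, 819.3 and 678.8 with mock, a change of 0.44 ± 0.22 that did not pass. CDC25.1 and CDC25.2 had changes of -0.09 and -0.05.

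Among the CRL1 lines at 8 h, the medians of the replication genes and of the mitotic genes came in the same order. At 4 h they did not. The replication medians were then -0.06, 0.18 and -0.04 in CRL1 lines 1, 2 and 3, and the mitotic medians -0.20, 0.09 and -0.28. In CRL1 line 2 all 27 replication genes were higher with dexamethasone at 8 h, with a median change of 0.89, and in CRL1 lines 1 and 3 the medians were 0.08 and 0.30 with 15 and 22 of 27 higher. In control lines 1 and 2 the medians were 0.26 and 0.0017. CRL1 line 2 thus had the highest median of the CRL1 lines for both groups, and its dexamethasone array at 8 h is the CRL1 array with the lowest correlation with other lines (0.9258). The part of that array in these results was not tested beyond leaving its line out.

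**Figure D5:**
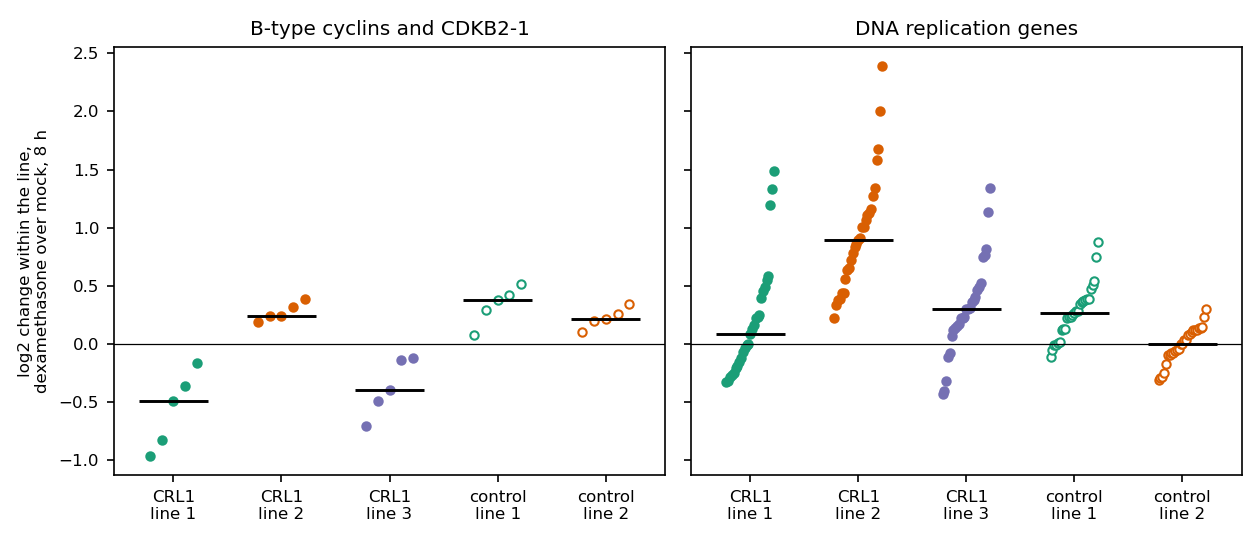
Log2 change with dexamethasone over mock at 8 h within each line (vertical axis), for the 4 B-type cyclin genes and CDKB2-1 (left, 5 points a line) and for 27 DNA replication genes (right), with the median of each line as a bar. In CRL1 line 2 every point of both panels lies above 0, while the mitotic genes of CRL1 lines 1 and 3 all lie below it.

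Markers of the tissue were read beside these results. All 5 shoot meristem markers, 9 root markers and 5 vascular markers with a probe set passed the filter on dim signals, and of the leaf markers RBCS1 did not. Of 5 shoot meristem markers (class I KNOX genes) 1 fell in the CRL1 lines at 8 h, OSH3, by 1.32 ± 0.27 (adjusted p = 0.00621, limma), and their summed signal was 721 to 1071 with dexamethasone, against 1181 to 1390 with mock. Of 9 root markers QHB rose (adjusted p = 0.000166, limma) and SHR1 fell, close to the threshold (adjusted p = 0.0492, limma). The root sum was 715 to 722 with dexamethasone, against 514 to 927 with mock. Over all probe sets 3.47% were called higher and 2.91% lower. The 3 tested of 4 leaf markers and the 5 vascular markers had no member that passed. The leaf sum was 10740 to 10850 with dexamethasone, against 9436 to 12100 with mock, and the vascular sum was 893 to 1216 with dexamethasone, against 920 to 1640 with mock. At 8 h the summed meristem signal was thus lower with dexamethasone, as CYCD3-2 and CYCP4-1 were. At 4 h the sum overlapped, at 1240 to 1448 with dexamethasone against 1299 to 1363 with mock in the CRL1 lines. At 4 h neither gene passed, though both were lower with dexamethasone without overlap, as 7.5% of all probe sets were. CYCD3-2 was nearly level in CRL1 line 3 at 4 h, with a log2 change of -0.0069. The part of the meristem signal in these results was not tested.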

How the data were processed

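Per the submitters' processing notes, the authors made linear MAS5 intensity values in Affymetrix Expression Console and deposited these. Software versions and the genome build of the arrays are not given in the sources used here. Coordinates and sequences are therefore left out. Probe sets were named by the platform annotation, with symbols updated from RefSeq (assembly ASM3414082v1): of 57258 probe sets without 123 controls, 22436 had 1 gene, 95 several and 34727 none listed. The members and the lists of other genes were chosen with earlier results of these data known.

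Values were log2(signal + 1.7), the offset being the 20th percentile of all signals, which understates changes of dim transcripts. Probe sets that exceeded the array median on 3 or more arrays entered the tests. These were done in limma 3.58.1 (R 4.3.3), fitting 8 group means over 20 arrays, with a trended variance and Benjamini-Hochberg adjustment at 0.05, and were tested on simulated data. Other steps ran in Python 3.11.15 (numpy 2.4.6, scipy 1.17.1, pandas 2.3.3, matplotlib 3.10.9). The comparison of mock-treated lines had line as a random block (correlation 0.2276). The number of arrays limits the precision. No 2 arrays held identical values.

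Arrays of a line are paired by the labels, since they share the transgenic line. The deviations of arrays from their group means had correlations of -0.05 to 0.22 within CRL1 lines (median 0.11, 18 pairs) and of -0.20 to 0.12 between them (median -0.06, 36 pairs). Where keeping line as a fixed block changed a member's call, both values are given. For the lists of other genes and the markers, calls with the block are not given here. Signals in every array are given for members that passed and, in each class with none, for the member with the smallest p at 8 h, with some others added after their values were seen (CYCA1-4, CYCA2-1, CYCD2-2, CYCD3-1, CYCD5-3 and PCNA). Of each other list up to 4 genes with the smallest p at 8 h were to be named, and the rest were named to account for every member of a count.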

Additional observations from a re-analysis of the deposited data

How the results depend on the processing

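There were 14 alternatives: a zero offset, an offset at the median, testing all probe sets, a stricter filter, quantile normalization, array weights, line as a block, averaging the probe sets of a gene, fitting only the groups compared, and leaving out each of the 5 lines. At 8 h in the CRL1 lines array weights gave 4 members lower (adding CYCD2-2 and CYCD3-1). With only the groups compared, 1 member was higher (CYCA3-2) and 1 lower (CYCP4-1). The share of all probe sets called with array weights or with only the groups compared is not given here, so these counts cannot be set against it. Leaving out 1 line at a time gave 0 to 2 higher and 0 to 2 lower. Without CRL1 line 1 they were CYCD5-2 and CYCP4-1, without CRL1 line 2 none was higher, and without CRL1 line 3 CYCD5-3 was higher and none lower. Each of the 5 genes that passed lost its call in at least 2 of these 5 fits, and CYCA3-2 lost it without any 1 of the 5 lines (adjusted p of 0.0509 to 0.138). With line as a block the changes kept their values and the adjusted p was 0.0336 for CYCD2-2 and 0.0066 for CYCD5-3. The block changed no other member's call, and no paired fit was possible for CRL1 against control lines under mock, since each line is of 1 kind. In that comparison, leaving out control line 2 changed the calls of CDKF-4, CYCP2-1 and CDKC-1, but left the untransformed line as the only control. The share of all probe sets called in that fit is not given here either. Leaving out 1 line, changes near 0 turned sign for CYCB1-1, at -0.47 to 0.060 (positive without CRL1 line 1), and for CYCH1-1, at -0.012 to 0.12 (negative without CRL1 line 3). The cause of these differences was not tested. Over all probe sets the calls in the CRL1 lines at 8 h numbered 2095, against 3643 with line as a block and 831, 492 and 954 without CRL1 lines 1, 2 and 3. At 4 h they numbered 143, against 354 with line as a block. Signals near or below the array medians, such as those of CYCF2-2, are too dim to be compared.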
